A study of Saccharomyces cerevisiae with 6 samples.

Results

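The 59 genes described here encode enzymes of arginine, lysine, histidine, branched-chain, aromatic, serine, threonine and proline biosynthesis, together with the regulators Gcn4 and Leu3. They were chosen by name, as the rows of a budding yeast count table whose gene symbol is on a list of such genes. The list matched 59 of 7127 features in the table, and all 59 passed the filter on low counts that left 6755 features for testing. Poly(A)-selected RNA was sequenced in 6 libraries of wild-type Saccharomyces cerevisiae, 3 biological replicates from aged cells and 3 from young cells. All 6 carry the strain label CGY4.51 and the genotype label MAT@. Aged cells had been held for 24 h in ministat aging devices (MADs), which retain mother cells labelled with magnetic beads while medium flow carries away their daughters. Young cells came from exponential cultures, for which the labels describe synthetic complete (SC) medium with glucose.

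Several features of the design bear on these genes. SC medium supplies amino acids, and the composition of the mix used is not given in the sources used here. The age of the cells and the culture system changed together, so their effects cannot be told apart. In the screen protocol that the study's methods refer to for the devices, the medium held methyl-alpha-D-mannopyranoside, a sugar analogue that keeps old cells from clumping. Whether the young RNA cultures contained it is not given in the sources used here. The prototrophic strain with the neighbouring strain number was made by restoring LEU2 with a PCR product, and the origin of LEU2 in CGY4.51 itself is not given in the sources used here. HIS3, LEU2, LYS2 and TRP1, members that serve as deletion markers in many laboratory strains, had counts in all 6 libraries, the lowest value being that of LEU2 in young replicate 2, given below. No library therefore lacked one of these genes. In bulk RNA, a change in the share of cells of one kind and a change in RNA per cell cannot be told apart.

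Gcn4 is a transcription activator of the bZIP family that binds the sequence TGACTCA and its near variants upstream of amino acid biosynthesis genes. In the response called general amino acid control, uncharged tRNA activates the kinase Gcn2, which slows translation as a whole but raises translation of the GCN4 mRNA through short open reading frames in its leader. GCN4 is controlled mainly at the level of translation and protein turnover, so its mRNA level does not report the amount of the protein. Many of its target genes also answer to a pathway's own regulator, such as Leu3 for leucine synthesis, which activates its targets when the intermediate alpha-isopropylmalate accumulates.

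Levels are given as CPM, counts relative to library size after scaling by the trimmed mean of M-values (TMM), in the order of replicates 1, 2 and 3 of each group. Libraries of aged cells held 29230292, 38435092 and 41650202 estimated counts, and those of young cells 30140666, 35102213 and 31991835. Log2 fold changes are aged over young, with standard errors (SE) and adjusted p-values from edgeR's quasi-likelihood test with Benjamini-Hochberg adjustment over all 6755 features. A gene was called higher or lower at an adjusted p under 0.05. Markers of alpha cells summed to between 3389 and 3718 CPM in aged libraries and between 4386 and 5375 CPM in young libraries. Markers of a cells summed to between 25.8 and 29.4 CPM in aged libraries and between 20.1 and 27.6 CPM in young libraries. No marker of either mating type was at 0. Of the 4 alpha cell markers, 1 was called higher and 2 lower (median log2 fold change −0.23). Of the 6 a cell markers, 4 were called higher and 0 lower (median 0.97). Of 11 genes of the daughter-specific program and of cell separation, 7 were higher and 1 was lower in aged cells. These 11 genes summed to between 1398 and 1536 CPM in aged libraries and between 1178 and 1257 CPM in young libraries. For comparison with these marker lists, 32.7% of all features were called higher and 30.8% lower. The part of daughter cells in the results below was not tested.

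Amino acid biosynthesis genes were mostly higher in aged cells, by modest amounts. Of the 59 members, 33 were higher (55.9%), 8 were lower (13.6%) and 18 passed in neither direction. Among all 6755 features, 32.7% were called higher and 30.8% lower, 63.5% in either direction. The members' median log2 fold change was 0.28, against 0.025 for all features, and their values ran from −0.79 for SER2 to 1.91 for LEU2. A called change of at least 2-fold upward was found for 4 members, LEU2, BAT2, SER3 and BAT1 (6.78%), against 5.91% of all features. No member fell by as much as 2-fold with a call, against 4.74% of all features. Every aged library lay above every young library for 38 members (64.4%, against 36.3% of all features) and below for 10 members (16.9%, against 33.8%), while the groups overlapped for 11. Within the pairs of libraries that share a batch number, the members' median log2 difference was 0.23, 0.31 and 0.30, with 44, 45 and 44 members higher in the aged library. Added together, the members took 0.792% to 0.820% of the scaled counts in aged libraries and 0.682% to 0.704% in young libraries.

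**Figure D1:**
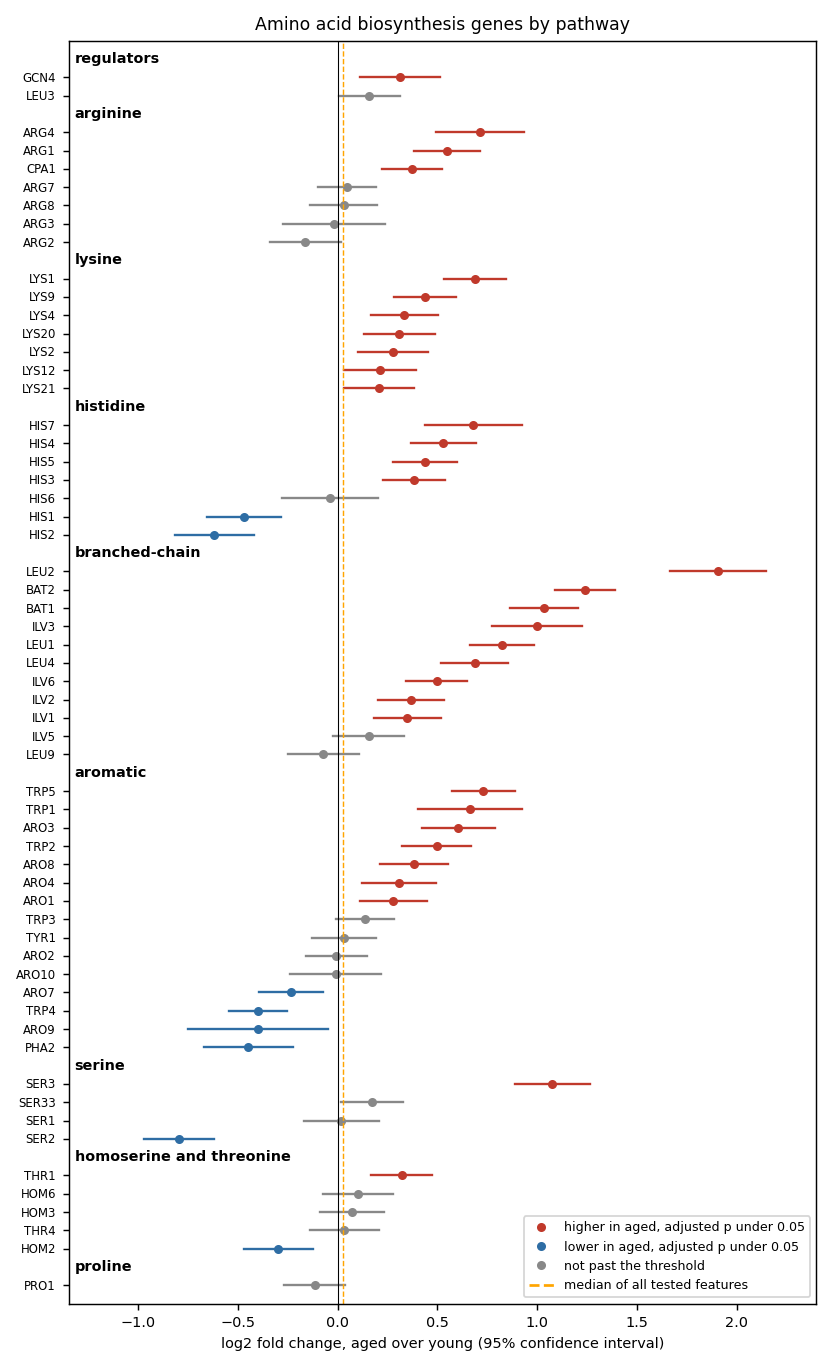
Log2 fold change, aged over young, of all 59 members, ordered by pathway, with 95% confidence intervals (n = 3 libraries per group). Points to the right of 0 are higher in aged cells, and LEU2 at 1.91 and SER2 at −0.79 mark the ends of the range.

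The count of higher members changed with an offset on GC content and with the scaling used. Members had a median GC content of 41.6%, against 39.6% for all tested features, and across the 59 members the log2 fold change followed GC content with a Spearman rho of 0.41, against 0.35 across all features, in the same libraries. With an offset on GC content in each library, 19 of the 59 members were called higher and 9 lower, and the median log2 fold change was 0.088. The shares of all features called with that offset are not given here. In the main comparison, 32.7% of all features were called higher and 30.8% lower. With total counts in place of TMM, 53 members were higher and 1 lower, and the shares of all features called with that scaling are not given here. The median of all features then stood at 0.54, and relative to it 43 members lay above and 16 below, the same numbers as with TMM. A change of scaling moves all features by nearly the same amount, so these numbers could hardly differ and are no separate check. Under every alternative run, including both of these, 18 members kept their call as higher (ARG1, ARG4, ARO3, BAT1, BAT2, HIS4, HIS5, HIS7, ILV3, LEU1, LEU2, LEU4, LYS1, LYS9, SER3, TRP1, TRP2 and TRP5), and SER2 kept its call as lower.

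The pathways did not contribute evenly. Branched-chain synthesis had the highest median log2 fold change, 0.69, with 9 of 11 members higher and none lower. Lysine synthesis followed the same direction in all 7 of its members, with a median of 0.31. Histidine synthesis split, with 4 members higher and 2 lower. Aromatic synthesis had 7 of 15 higher and 4 lower, arginine synthesis 3 of 7 higher and none lower. The serine pathway had 1 higher and 1 lower of 4, and homoserine and threonine synthesis 1 higher and 1 lower of 5. Among all features, 32.7% were called higher and 30.8% lower. With so few members, the counts of the serine pathway and of homoserine and threonine synthesis cannot be set apart from those shares. PRO1, glutamate kinase and the first enzyme of proline synthesis, was the only proline member and did not pass, at −0.12 on the log2 scale (SE 0.07, edgeR adjusted p = 0.166). PRO1 was called lower with the length offset (−0.29, edgeR adjusted p = 0.00207).

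**Figure D2:**
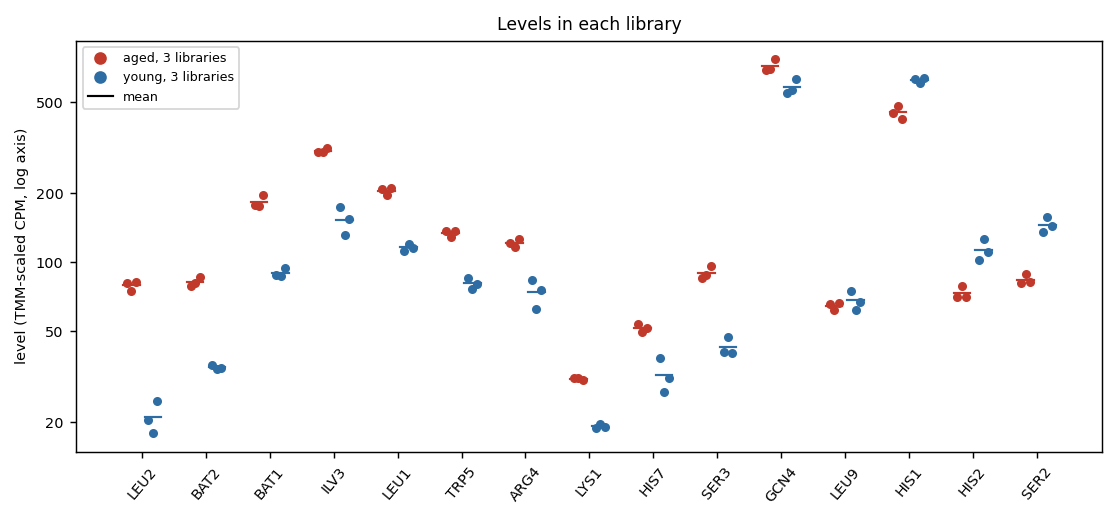
TMM-scaled CPM, on a log axis, of 15 members in each of the 3 aged libraries and 3 young libraries, with the mean of each group as a line. The groups are apart for every gene shown except LEU9, and HIS1, HIS2 and SER2 run opposite to the others.

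GCN4, the activator itself, was the most abundant member of aged cells per kilobase of coding length, at 851 CPM per kilobase in aged cells and 685 in young cells, where HIS1 stood above it at 700.1. GCN4 (YEL009C) had 694, 698 and 768 CPM in aged libraries, against 546, 565 and 628 CPM in young libraries. All aged libraries were above all young ones, and GCN4 was higher by 0.31 on the log2 scale (SE 0.09, edgeR adjusted p = 0.0118). That call was lost without aged replicate 3 (log2 fold change 0.26, edgeR adjusted p = 0.0559) and with the GC offset (0.13, edgeR adjusted p = 0.255). LEU3 (YLR451W), the zinc-cluster regulator of leucine genes, had 38.9, 37.0 and 40.8 CPM in aged libraries and 34.8, 34.4 and 35.5 CPM in young libraries. Its groups did not overlap, but a difference of 0.16 (SE 0.07) did not pass, with an edgeR adjusted p of 0.0673. With the GC offset LEU3 was called higher, at 0.20 (edgeR adjusted p = 0.0353).

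Branched-chain synthesis makes isoleucine and valine through shared mitochondrial enzymes, and branches to leucine by way of alpha-isopropylmalate. Its 11 transcripts summed to 2166 ± 43.7 CPM in aged cells and 1511 ± 29.9 CPM in young cells (SD, n = 3 each), the widest gap of any pathway here, with a log2 ratio of 0.52. Within the window searched, LEU1, LEU2 and BAT1 hold the Leu3 element, and BAT1, ILV3, ILV5, ILV6 and LEU4 hold the Gcn4 heptamer. BAT2, ILV1, ILV2 and LEU9 hold neither. The stretches below are from the most changed members that hold a site, which leaves out BAT2. Capitals mark the Leu3 element, CCGG and CCGG with any 2 bases between them, and the Gcn4 heptamer TGACTCA, searched on both strands from 250 bases before to 50 bases after the start codon. Each stretch is 80 bases long, reads 5′ to 3′ toward the gene and comes from the R64 assembly, which the labels name.
LEU2, chrIII:91104-91183, plus strand: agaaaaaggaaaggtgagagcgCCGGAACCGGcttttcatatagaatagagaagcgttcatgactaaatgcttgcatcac
LEU1, chrVII:478813-478892, minus strand: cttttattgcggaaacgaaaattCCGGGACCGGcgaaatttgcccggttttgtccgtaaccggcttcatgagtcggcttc
BAT1, chrVIII:517332-517411, plus strand: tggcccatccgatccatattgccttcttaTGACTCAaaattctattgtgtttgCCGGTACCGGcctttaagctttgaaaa
ILV3, chrX:466304-466383, minus strand: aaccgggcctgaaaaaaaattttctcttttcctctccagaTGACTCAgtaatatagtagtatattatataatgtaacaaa
LEU4, chrXIV:426815-426894, minus strand: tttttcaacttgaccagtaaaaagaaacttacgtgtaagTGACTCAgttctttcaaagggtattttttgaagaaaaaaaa

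The Leu3 element starts 198 bases before the LEU2 start codon, 217 before that of LEU1 and 147 before that of BAT1, and BAT1 also holds the Gcn4 heptamer at 171. The heptamer starts 135 bases before ILV3 and 101 before LEU4. Only 8 of 6001 promoters (0.133%) hold the Leu3 element in this window, and 3 of them belong to members. LEU2, BAT1 and LEU1 had log2 fold changes of 1.91, 1.03 and 0.82, and ranked 1, 4 and 6 by fold change among the 59. The remaining 5 genes with the element had 0.45 (NPA3), 0.43 (GAT1), 0.26 (BRO1), 0.0027 (FSF1) and −0.096 (DRE2). They were looked up for that match and are not known here as Leu3 targets. A match to letters is a description and was not tested as a binding site.

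The leucine branch held the member with the highest fold change. LEU2 (YCL018W), isopropylmalate dehydrogenase, had 80.8, 75.0 and 82.0 CPM in aged libraries, against 20.5, 18.0 and 24.9 CPM in young libraries. The lowest aged library was above 3 times the highest young one, and the fitted change was 3.75-fold (log2 1.91, SE 0.11, edgeR adjusted p = 4.51e-07), the highest of all members. LEU1 (YGL009C), isopropylmalate isomerase, had 208.1, 196.8 and 211.3 CPM in aged libraries and 112.3, 120.7 and 115.3 CPM in young libraries. Its groups were well apart, and it was higher by 0.82 (SE 0.07, edgeR adjusted p = 1.04e-05). LEU4 (YNL104C) encodes the main isopropylmalate synthase, which makes the ligand of Leu3, and had 106.6, 103.0 and 110.1 CPM in aged libraries against 71.1, 61.2 and 66.5 CPM in young libraries. It was higher in each aged library than in any young one, by 0.69 on the log2 scale (SE 0.07, edgeR adjusted p = 3.69e-05). LEU9 (YOR108W), the second isopropylmalate synthase, had 66.0, 62.1 and 66.3 CPM in aged libraries and 74.8, 62.2 and 67.4 CPM in young libraries. Its groups overlapped and it did not pass (log2 fold change −0.073, SE 0.08, edgeR adjusted p = 0.441). LEU9 was called lower with the GC offset (−0.28, edgeR adjusted p = 0.00808) and with the length offset (−0.24, edgeR adjusted p = 0.00963).

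Both branched-chain aminotransferases, which catalyse the last step of synthesis and the first step of breakdown, were at least 2-fold higher. BAT1 (YHR208W), the mitochondrial enzyme, had 178.5, 176.2 and 197.6 CPM in aged libraries and 88.1, 87.1 and 94.6 CPM in young libraries. BAT2 (YJR148W), the cytosolic enzyme, had 79.2, 81.3 and 86.0 CPM in aged libraries and 35.7, 34.1 and 34.6 CPM in young libraries. Neither gene's groups came near each other, with log2 fold changes of 1.03 for BAT1 (SE 0.08, edgeR adjusted p = 3.31e-06) and 1.24 for BAT2 (SE 0.07, edgeR adjusted p = 3.35e-07). BAT2, unlike BAT1, held neither the Leu3 element nor the Gcn4 heptamer in its window. ILV3 (YJR016C), dihydroxyacid dehydratase, which serves valine, isoleucine and leucine alike, had 303.0, 304.5 and 314.8 CPM in aged libraries and 174.3, 131.6 and 155.2 CPM in young libraries. The aged libraries lay within a narrow band above all young ones, and the log2 fold change was 1.00 (SE 0.10, edgeR adjusted p = 2.50e-05).

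The earlier steps moved less. ILV6, the regulatory subunit of acetolactate synthase, was higher by 0.50, its catalytic subunit ILV2 by 0.37 and threonine deaminase ILV1, the entry into isoleucine synthesis, by 0.35. All 3 lost their calls with the GC offset (0.12, 0.088 and 0.16), and ILV1 kept its call when the offset was fitted with the replicate block. ILV5, the acetohydroxyacid reductoisomerase, was after GCN4 the most abundant member in aged cells per kilobase (608 CPM per kilobase in aged cells and 547 in young cells) and did not pass at 0.15 (edgeR adjusted p = 0.115). OAC1, the mitochondrial carrier that exports alpha-isopropylmalate, is no member but belongs to the same route. It had 163.6, 169.5 and 143.4 CPM in aged libraries and 86.3, 80.8 and 84.6 CPM in young libraries, and was higher by 0.92 (SE 0.08, edgeR adjusted p = 1.04e-05).

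**Figure D3:**
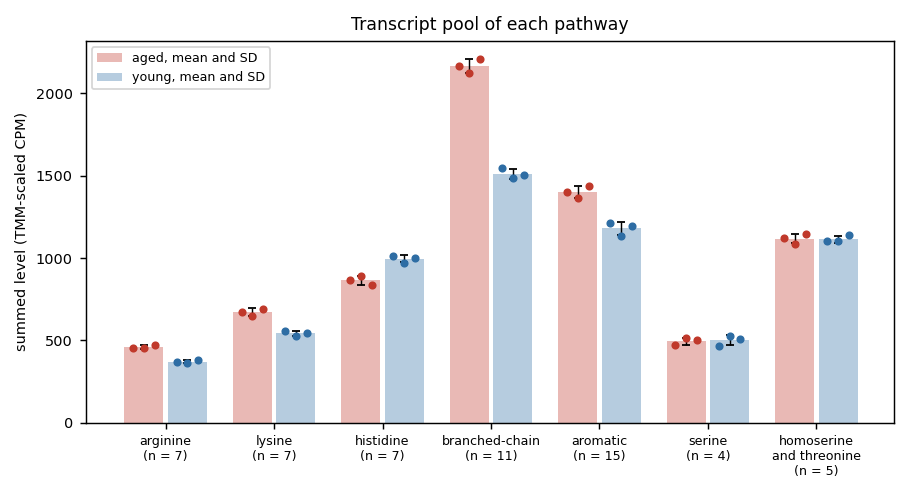
Summed TMM-scaled CPM of the members of each pathway, as mean and SD bars with the 3 libraries of each group as points. Branched-chain synthesis stood at 2166 CPM in aged cells against 1511 CPM in young cells, histidine synthesis ran the other way, and the serine and threonine sums overlapped.

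All 7 lysine members were higher, from 0.21 to 0.69. Yeast makes lysine by the alpha-aminoadipate route, which begins in the mitochondrion and nucleus with homocitrate synthase and ends in the cytosol with saccharopine dehydrogenase. The transcripts summed to 672.0 ± 21.5 CPM in aged cells and 541.9 ± 14.2 CPM in young cells (SD, n = 3 each). LYS1 (YIR034C), the last enzyme, had 31.1, 31.2 and 30.8 CPM in aged libraries and 19.0, 19.7 and 19.1 CPM in young libraries. Its replicates differed by under 1 CPM within each group, and it was higher by 0.69 (SE 0.07, edgeR adjusted p = 2.58e-05). The Gcn4 heptamer in the LYS1 window lies at its far edge, starting 250 bases before the start codon, in the other orientation, TGAGTCA (R64, capitals).
LYS1, chrIX:420907-420986, minus strand: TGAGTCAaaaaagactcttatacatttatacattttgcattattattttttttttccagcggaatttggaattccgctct

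The homocitrate synthases are isozymes, and the product lysine inhibits both. LYS20 (YDL182W) had 47.4, 45.1 and 50.9 CPM in aged libraries and 37.4, 36.5 and 41.9 CPM in young libraries, a rise of 0.31 (SE 0.08, edgeR adjusted p = 0.00653). LYS21 (YDL131W) had 83.1, 79.0 and 90.4 CPM in aged libraries and 68.0, 77.3 and 73.5 CPM in young libraries, a rise of 0.21 (SE 0.08, edgeR adjusted p = 0.0392). Neither pair of groups overlapped, although LYS21 in young replicate 2 lay just below the lowest aged value. LYS9, the glutamate-forming saccharopine dehydrogenase, was higher by 0.44, LYS4 (homoaconitase) by 0.33, LYS2 (alpha-aminoadipate reductase) by 0.28 and LYS12 (homoisocitrate dehydrogenase) by 0.21. Only LYS1 and LYS9 kept their calls with the GC offset (LYS2 too when fitted with the replicate block), under which LYS21 and LYS12 stood at −0.029 and −0.019. LYS21 and LYS12 also lost their calls when single libraries were left out, LYS21 without aged replicate 1 or 3 or young replicate 1 or 3 (edgeR adjusted p from 0.0924 to 0.165) and LYS12 without any one library except young replicate 1 (0.0703 to 0.140). LYS14, the activator of the lysine genes, was lower at 52.2, 53.4 and 52.2 CPM in aged libraries, against 68.3, 85.8 and 72.5 CPM in young libraries, for a log2 value of −0.52 (SE 0.09, edgeR adjusted p = 0.000499). No member's window held the pattern searched for Lys14, TCC and CGGA with any 3 bases between them. It was read on the strand of the gene only, and 31 of 6001 promoters (0.517%) hold it. Sites of another spacing or on the other strand were not searched. The LYS1 stretch above holds TCCAGCGGA, with TCC and GGA and 3 bases between them, a shorter form that this pattern misses. The absence of matches therefore does not show that the lysine genes lack Lys14 sites, and no stretch was tested as a binding site.

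Arginine synthesis builds ornithine in the mitochondrion and turns it into arginine in the cytosol, and its called members all act in the cytosol. ARG4 (YHR018C), argininosuccinate lyase and the last enzyme, had 121.3, 117.1 and 126.3 CPM in aged libraries and 83.6, 62.8 and 75.9 CPM in young libraries. ARG1 (YOL058W), argininosuccinate synthetase, which acts just before it, had 65.6, 67.0 and 73.6 CPM in aged libraries and 46.4, 45.0 and 49.8 CPM in young libraries. Both sets of groups were apart, and the log2 fold changes were 0.71 for ARG4 (SE 0.10, edgeR adjusted p = 0.000155) and 0.55 for ARG1 (SE 0.07, edgeR adjusted p = 0.000136). CPA1, the small subunit of carbamoyl phosphate synthetase, was higher by 0.37, and was 0.14 with the GC offset, without a call. ARG3 (ornithine carbamoyltransferase) at −0.019, ARG7 (ornithine acetyltransferase) at 0.046, ARG8 (acetylornithine aminotransferase) at 0.029 and ARG2 (acetylglutamate synthase) at −0.16 did not pass, and ARG2 was called lower with the length offset (−0.34, edgeR adjusted p = 0.00374). ARG7, ARG8 and ARG2 act in the mitochondrion, as does ARG5,6 (acetylglutamate kinase and reductase), which is not among the 59 and was higher by 0.28 (edgeR adjusted p = 0.0301). ORT1, the mitochondrial ornithine exporter, had 93.3, 108.1 and 88.0 CPM in aged libraries and 128.6, 160.9 and 123.1 CPM in young libraries, and was lower (log2 fold change −0.51, SE 0.11, edgeR adjusted p = 0.00272). Summed, the 7 arginine members stood at 459.1 ± 11.4 CPM in aged cells and 369.0 ± 8.69 CPM in young cells (SD, n = 3 each).

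Histidine synthesis is a single unbranched route, and its members moved in both directions. HIS4 and HIS1 show this contrast, and each has a Gcn4 heptamer at a similar distance, shown here in capitals (R64).
HIS4, chrIII:68504-68583, minus strand: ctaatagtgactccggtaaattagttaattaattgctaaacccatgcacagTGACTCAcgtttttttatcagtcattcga
HIS1, chrV:265931-266010, minus strand: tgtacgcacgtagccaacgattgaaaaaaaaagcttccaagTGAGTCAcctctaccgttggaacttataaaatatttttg

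The heptamer starts 199 bases before the HIS4 start codon and 184 before that of HIS1. The windows are not alike otherwise, since HIS4 also holds the heptamer's core, TGACTC, at 243, in lower case above. HIS1 holds no core outside its heptamer. HIS4 (YCL030C), a fused enzyme that carries several steps of the route, had 106.0, 105.0 and 113.6 CPM in aged libraries and 79.9, 74.4 and 70.7 CPM in young libraries. HIS1 (YER055C), the ATP phosphoribosyltransferase that commits the pathway, had 448.9, 480.8 and 423.8 CPM in aged libraries and 632.5, 605.6 and 639.7 CPM in young libraries. HIS4 was thus above and HIS1 below the young range in every aged library, with log2 fold changes of 0.53 (SE 0.07, edgeR adjusted p = 0.000152) and −0.47 (SE 0.08, edgeR adjusted p = 0.000701). HIS7 (YBR248C), imidazole glycerol phosphate synthase, had 53.6, 49.7 and 51.6 CPM in aged libraries and 38.2, 27.1 and 31.4 CPM in young libraries. It was higher by 0.68 (SE 0.11, edgeR adjusted p = 0.000397). HIS2 (YFR025C), histidinol phosphatase, had 70.8, 79.1 and 70.8 CPM in aged libraries and 102.3, 126.1 and 110.7 CPM in young libraries. It was the second lowest member by fold change, at −0.62 (SE 0.09, edgeR adjusted p = 0.000197), with no overlap between the groups. HIS5 (the aminotransferase) was higher by 0.44 and HIS3 (the dehydratase) by 0.38, while HIS6 (an isomerase) was at −0.038 and did not pass. HIS3 stood at 0.0096 with the GC offset and lost its call. With total counts only, HIS1 stood at 0.036 and HIS2 at −0.10, neither with a call as lower. Since HIS1 is the most abundant of the 7, the pathway sum was 865.9 ± 27.8 CPM in aged cells and 994.8 ± 21.1 CPM in young cells (SD, n = 3 each), opposite in direction to the median of its members' log2 fold changes, 0.38.

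The aromatic members span the shared shikimate route, the tryptophan branch, the phenylalanine and tyrosine branches, and aromatic amino acid turnover. The first enzyme, DAHP synthase, exists as the phenylalanine-inhibited Aro3 and the tyrosine-inhibited Aro4. ARO3 (YDR035W) had 153.0, 152.1 and 153.5 CPM in aged libraries and 109.8, 90.1 and 101.9 CPM in young libraries. ARO4 (YBR249C) had 156.6, 151.2 and 172.9 CPM in aged libraries and 132.2, 119.8 and 136.6 CPM in young libraries. Both were higher in all aged libraries, ARO3 by 0.60 (SE 0.08, edgeR adjusted p = 0.000141) and ARO4 by 0.31 (SE 0.08, edgeR adjusted p = 0.00826). ARO1, the pentafunctional enzyme of the middle steps, was higher by 0.28, and ARO2, chorismate synthase, stood at −0.0064 and did not pass. With the GC offset ARO1 and ARO4 lost their calls, at 0.16 and 0.020, and ARO2 was called lower, at −0.36 (edgeR adjusted p = 0.00118).

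In the tryptophan branch, TRP5 and TRP1 were the most changed. TRP5 (YGL026C), tryptophan synthase and the last enzyme, had 137.5, 129.0 and 136.9 CPM in aged libraries and 85.7, 76.8 and 80.7 CPM in young libraries. TRP1 (YDR007W), phosphoribosylanthranilate isomerase, had 89.5, 92.1 and 81.7 CPM in aged libraries and 65.8, 45.4 and 54.9 CPM in young libraries. Their groups were apart, with log2 fold changes of 0.73 for TRP5 (SE 0.07, edgeR adjusted p = 2.17e-05) and 0.66 for TRP1 (SE 0.12, edgeR adjusted p = 0.000704). TRP2, the catalytic subunit of anthranilate synthase, was higher by 0.50, its partner TRP3 was at 0.14 and did not pass, and TRP4, anthranilate phosphoribosyltransferase, was lower at −0.40. The enzyme between TRP2 and TRP1 in the branch thus moved opposite to both.

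None of the enzymes that lead from chorismate toward phenylalanine and tyrosine (PHA2, ARO7 and TYR1) was called higher. PHA2 (prephenate dehydratase) was lower at −0.45 and ARO7 (chorismate mutase) at −0.23, and TYR1 (prephenate dehydrogenase) did not pass at 0.030. The call of ARO7 was lost without aged replicate 1 (edgeR adjusted p = 0.0650) and without young replicate 3 (0.0780), and ARO7 stood at 0.0033 with the GC offset. ARO8 (YGL202W), the aromatic aminotransferase that serves synthesis, had 150.6, 139.7 and 162.3 CPM in aged libraries and 119.5, 112.3 and 115.4 CPM in young libraries. ARO9 (YHR137W), the aminotransferase of aromatic amino acid breakdown, had 5.73, 6.00 and 5.92 CPM in aged libraries and 6.11, 9.61 and 7.62 CPM in young libraries, the lowest level per kilobase of any member. ARO8 was higher by 0.38 (SE 0.08, edgeR adjusted p = 0.00161), and ARO9 was lower at −0.40 (SE 0.16, edgeR adjusted p = 0.0463). ARO8 lost its call with the GC offset, at 0.16 (edgeR adjusted p = 0.0926). The ARO9 call did not hold without any one of 5 libraries, all but young replicate 1 (edgeR adjusted p from 0.0907 to 0.171). ARO10, a decarboxylase of the same breakdown route, was at −0.010 and did not pass.

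Serine synthesis from 3-phosphoglycerate moved in opposite directions at its first and last steps. SER3 (YER081W), phosphoglycerate dehydrogenase, had 85.5, 87.8 and 96.4 CPM in aged libraries and 40.7, 47.2 and 40.1 CPM in young libraries. SER2 (YGR208W), phosphoserine phosphatase, had 80.9, 88.5 and 82.1 CPM in aged libraries and 135.1, 157.0 and 144.2 CPM in young libraries. No aged library came within the young range for either gene, and the log2 fold changes were 1.08 for SER3 (SE 0.08, edgeR adjusted p = 4.76e-06) and −0.79 for SER2 (SE 0.08, edgeR adjusted p = 2.21e-05). SER33 (YIL074C), the other phosphoglycerate dehydrogenase, had 54.5, 55.4 and 60.5 CPM in aged libraries and 51.8, 50.8 and 49.0 CPM in young libraries. Its groups did not overlap, and a difference of 0.17 (SE 0.07) had an edgeR adjusted p of 0.0542. It passed at 0.0487 when features needed at least 10 counts in every library. SER1, the aminotransferase between them, stood at 0.017, and the pathway sum of 495.6 ± 21.4 CPM in aged cells overlapped that of 500.5 ± 29.8 CPM in young cells (SD, n = 3 each).

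SER3 is also the only member that overlaps another annotated gene. SRG1, a non-coding RNA transcribed from the SER3 upstream region and known to repress SER3 by transcription through its promoter when serine is present, lies at chrV:322212-322762 and shares 77 bases and the strand with SER3. SRG1, looked up after the SER3 value was seen, had 52.8, 51.3 and 48.6 CPM in aged libraries and 110.2, 149.4 and 115.3 CPM in young libraries. Every aged library was below every young one, opposite in direction to SER3, at −1.30 on the log2 scale (SE 0.11, edgeR adjusted p = 8.26e-06). Reads in the shared bases cannot be assigned to one of the transcripts by strand.

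The homoserine and threonine members changed little as a pool. THR1, homoserine kinase, was higher by 0.32 (edgeR adjusted p = 0.00220), and HOM2, aspartic beta semialdehyde dehydrogenase, was lower at −0.30 (edgeR adjusted p = 0.00701). With the GC offset THR1 stood at −0.042 and lost its call. HOM6 (homoserine dehydrogenase) at 0.10, HOM3 (aspartate kinase) at 0.072 and THR4 (threonine synthase) at 0.033 did not pass. The sum over the 5 genes was 1119 ± 29.8 CPM in aged cells and 1116 ± 21.2 CPM in young cells (SD, n = 3 each). HOM2 and HIS1 were the members with a Gcn4 heptamer that were lower in aged cells, and the heptamer of HOM2 starts 184 bases before its start codon, as in HIS1 (R64, heptamer in capitals).
HOM2, chrIV:770132-770211, plus strand: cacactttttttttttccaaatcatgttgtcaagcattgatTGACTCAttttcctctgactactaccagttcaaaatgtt

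The isozyme pairs compare genes of like function within the same library, so that scaling between libraries drops out of their ratio. Of 6 pairs, 5 had ratios that did not overlap between the groups. Among single features, every aged library lay above every young library for 36.3% and below for 33.8%, so separation of the groups was common. The share for ratios of other gene pairs was not computed. Per kilobase, the log2 ratio of LEU4 to LEU9 was 0.68 ± 0.022 in aged cells and −0.075 ± 0.030 in young cells (SD, n = 3 each), a shift of 0.76. That of SER3 to SER33 was 0.66 ± 0.012 in aged cells and −0.25 ± 0.12 in young cells, a shift of 0.91. In both pairs the first gene exceeded the second in every aged library and was below it in every young library. ARO8 exceeded ARO9 by 4.72 ± 0.12 in aged cells and 3.96 ± 0.37 in young cells. The ratio of ARO3 to ARO4 was −0.066 ± 0.094 in aged cells and −0.37 ± 0.086 in young cells. BAT1 to BAT2 moved the other way, at 1.10 ± 0.044 in aged cells and 1.31 ± 0.075 in young cells. LYS20 to LYS21 overlapped, at −0.78 ± 0.012 in aged cells and −0.88 ± 0.14 in young cells. Two-sided exact permutation tests gave p = 0.1 for the 5 pairs, the smallest that 3 against 3 libraries allow, and 0.2 for LYS20 to LYS21 (0.12 and 0.2 after adjustment over the 6 pairs). Reads that fit both genes of a pair may have been shared between them in the counting, and how far this touches each ratio was not tested.

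**Figure D4:**
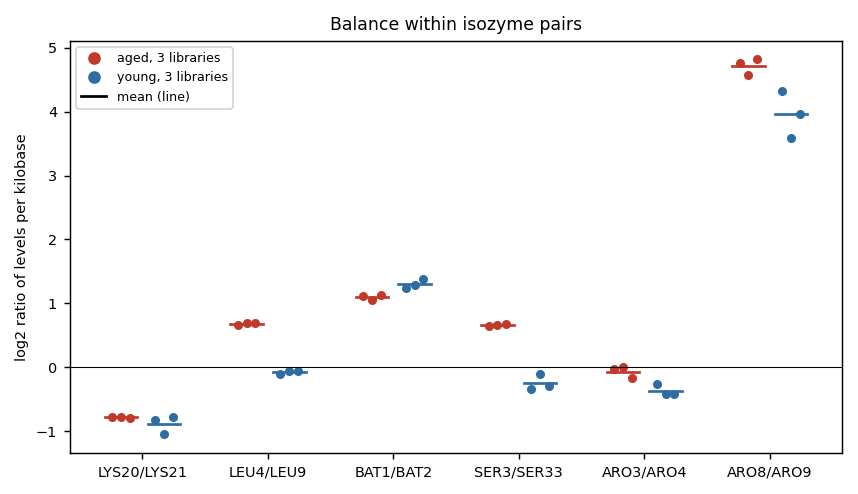
Log2 ratio of the levels per kilobase of the isozymes in 6 pairs, for each of the 3 aged and 3 young libraries, with group means as lines. LEU4 to LEU9 and SER3 to SER33 lie above 0 in every aged library and below 0 in every young library.

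Across all pathways, the Gcn4 heptamer TGACTCA (on either strand) was found in the windows of 18 of 59 members (30.5%), against 164 of 6001 promoters (2.73%). Its 6-base core TGACTC, which every heptamer contains, was found in 31 members (52.5%), against 479 promoters (7.98%). Members with the heptamer had a median log2 fold change of 0.47, with 12 higher, 2 lower and 4 in neither direction. The 41 without it had a median of 0.21, with 21 higher, 6 lower and 14 in neither direction. For the core the order was the other way, with a median of 0.21 in the 31 members that hold it and 0.31 in the 28 that do not. Genes with no match included strongly changed members such as BAT2, SER3, TRP5 and ARG1. Over all tested genes with a window, the 164 with the heptamer had a median of 0.15 and 44.5% were higher, against a median of 0.030 and 33.5% among the 5730 without it. ARG4 carries a heptamer of the common kind, 179 bases before its start codon (R64, in capitals).
ARG4, chrVIII:141543-141622, minus strand: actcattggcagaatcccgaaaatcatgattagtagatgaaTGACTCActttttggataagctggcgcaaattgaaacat

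**Figure D5:**
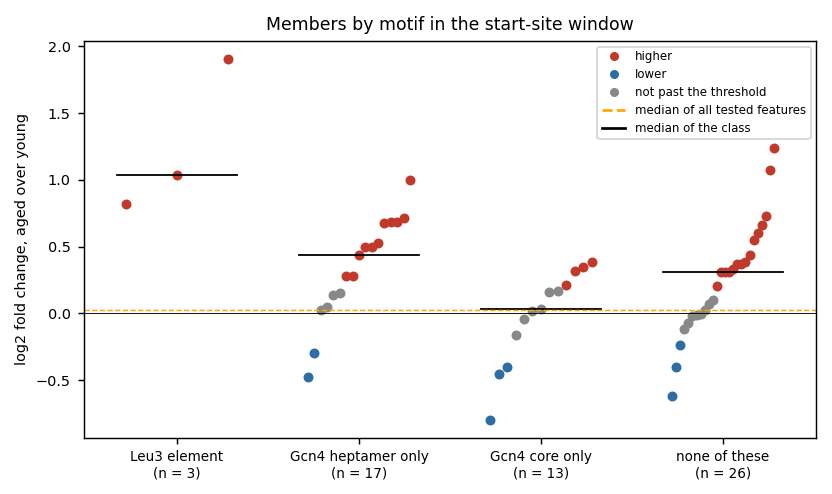
Log2 fold change of each of the 59 members by the motif found from 250 bases before to 50 bases after the start codon, with class medians as lines and the median of all features (0.025) dashed. The 3 members with the Leu3 element had a median of 1.03, and the 17 with the Gcn4 heptamer alone 0.44. The 13 with the Gcn4 core alone had a median of 0.033, and the 26 with none of these 0.31.

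By the compartment of the enzyme, 8 of 13 mitochondrial members were higher and none lower, with a median log2 fold change of 0.33. Of the 42 cytosolic members, 22 rose and 8 fell (median 0.28), and these 8 are all the members called lower. Among all features, 32.7% were called higher and 30.8% lower. With the length offset, the mitochondrial members LEU9 and ARG2 were called lower as well. With the GC offset, LEU9 was called lower, and the mitochondrial members LYS4, LYS12, ILV1, ILV2 and ILV6 lost their calls as higher. Members of the other compartments lost such calls with the GC offset too, among them GCN4, LYS20, HIS3 and THR1. The 4 members placed in the nucleus, which are GCN4, LEU3 and the homocitrate synthases, had 3 higher and none lower, with a median of 0.26.

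Genes that surround these pathways were examined as lists, beside all features, of which 32.7% were called higher and 30.8% lower. Of 7 remaining enzymes and carriers, which include OAC1 and ORT1, 4 rose and 1 fell (median 0.28). Of 12 genes that control Gcn4 or are known as its outputs outside amino acid synthesis, 6 rose and 1 fell (median 0.27). SNZ1, a pyridoxine synthesis gene known as a Gcn4 target, had 22.7, 22.5 and 21.6 CPM in aged libraries and 7.26, 5.18 and 7.54 CPM in young libraries. It was the most changed of that list, at 1.74 on the log2 scale (SE 0.13, edgeR adjusted p = 3.13e-06). PCL5, a cyclin that marks Gcn4 for degradation, was named after its value was seen and had 77.6, 79.3 and 75.5 CPM in aged libraries and 32.4, 35.4 and 34.0 CPM in young libraries. It was higher by 1.19 (SE 0.07, edgeR adjusted p = 4.51e-07). GCD2, a subunit of the translation initiation factor eIF2B, was lower at 144.0, 143.6 and 134.2 CPM in aged libraries, against 181.3, 234.4 and 200.9 CPM in young libraries, for a log2 value of −0.55 (SE 0.10, edgeR adjusted p = 0.000724). The other eIF2B subunits of the list, named after their values were seen, did not follow GCD2. GCD6 was called higher, at 0.44 (SE 0.11, edgeR adjusted p = 0.00621). GCD1 at 0.11, GCD7 at 0.070 and GCN3 at −0.0067 did not pass.

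The pathway-specific regulators showed no common direction. Of 9, 3 rose and 3 fell (median −0.20), shares close to the 32.7% higher and 30.8% lower among all features. ARG80, a regulator of arginine genes, was the most changed of those that rose, at 23.0, 23.6 and 20.9 CPM in aged libraries and 18.2, 14.9 and 17.1 CPM in young libraries (log2 fold change 0.43, SE 0.10, edgeR adjusted p = 0.00310). LYS14, described above, was the lowest.

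Genes for breaking down amino acids moved in both directions. Of 11, 3 rose and 4 fell (median −0.28, range −1.48 to 0.50), shares close to the 32.7% higher and 30.8% lower among all features. CHA1, the serine and threonine deaminase that is induced by its substrates, had 64.1, 67.5 and 72.2 CPM in aged libraries and 204.5, 174.4 and 188.3 CPM in young libraries. Its groups were far apart, at −1.48 on the log2 scale (SE 0.08, edgeR adjusted p = 4.51e-07). CAR1, arginase, named after its value was seen, had 19.7, 20.9 and 20.2 CPM in aged libraries and 40.8, 39.5 and 43.7 CPM in young libraries, for a log2 value of −1.03 (SE 0.07, edgeR adjusted p = 2.45e-06). PDC5, a decarboxylase that also acts on products of amino acid transamination, was the most changed of those that rose, at 15.8, 13.2 and 14.6 CPM in aged libraries and 9.18, 10.4 and 11.2 CPM in young libraries (log2 fold change 0.50, SE 0.11, edgeR adjusted p = 0.00285).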

How the data were processed

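The authors deposited unnormalized estimated counts for each feature in 1 table with 1 column per library, and 0 such columns went unused. Between 54.3% and 59.5% of a library's values are not whole, so these are expected counts, and how multimapping reads were divided and which strand setting was used are not given in the sources used here. The submitters' processing notes name bcl2fastq, cutadapt 2.6, STAR 2.7.6a, featureCounts, Subread 1.6.2 and the R64 build. The authors tested differences with DESeq2 and shrank the estimates, which was not done here. Library totals of 29230292 to 41650202 made counting error small for all but the lowest genes, so the spread between replicates set the precision.

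Counts were rounded, filtered with filterByExpr (minimum count 10), scaled by TMM and tested with edgeR 4.0.16 (glmQLFit and glmQLFTest, two-sided, group as the only term) in R 4.3.3, with Benjamini-Hochberg adjustment over all 6755 features and a threshold of 0.05. SEs were taken from the F statistic. The script was tested on simulated data. Alternatives were DESeq2 size factors, total counts only, 2 other filters, the Wald test of DESeq2 1.42.0, a replicate block, loess offsets (span 0.5) on GC content and gene length with and without the block, and leaving out each library. The comparison of total counts with the median of all features was added after seeing the data.

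Batch numbers in the labels pair the libraries. Deviations of same-numbered libraries correlated at 0.126, 0.334 and 0.122, and those of other pairs at −0.297 to 0.202, the highest being aged 3 with young 1. Gene positions, lengths and promoters came from RefSeq R64, to which 6047 of 7127 features and all 59 members matched by locus tag. The 59 gene models hold coding length only. The members and lists were chosen with earlier results of these data known. Every member is accounted for, and per-library values are given for GCN4, LEU3, called members with an absolute log2 fold change of at least 0.5, isozyme pairs, and the most changed called gene of each other list in each direction. Genes named outside this rule are marked as such.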

Additional observations from a re-analysis of the deposited data

How the results depend on the processing

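With the replicate block, 33 members were higher and 8 lower (median log2 fold change 0.28), and no member's call changed. Leaving out 1 library at a time gave 30 to 32 higher, 6 to 9 lower and a median of 0.25 to 0.31. The GC offset with the block gave 21 higher and a median of 0.089 (19 and 0.088 without the block), and the length offset a median of 0.17, with 13 lower with the block. Total counts gave 53 higher, 1 lower and a median of 0.79. The cause of these shifts was not tested. Without a change of sign, the GC offset removed the calls of 12 members and added 3 (10 and 4 with the block), the length offset 4 and 3 (3 and 3 with the block), total counts 1 and 11, and DESeq2 size factors 2 and none. With total counts, log2 ratios of summed levels were 0.82 (regulators), 0.83 (arginine), 0.82 (lysine), 0.31 (histidine), 1.03 (branched-chain), 0.76 (aromatic), 0.50 (serine), 0.52 (homoserine and threonine) and 0.40 (proline). Without single libraries these ratios ran from 0.26 to 0.36 (regulators), 0.29 to 0.33 (arginine) and −0.061 to 0.023 (serine), and the LEU4 to LEU9 shift from 0.74 to 0.77.

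Members that changed sign did so as follows, in log2 fold change. With total counts only: ARG2 0.35, ARG3 0.51, HIS1 0.036, HIS6 0.46, LEU9 0.43, ARO2 0.51, ARO7 0.28, PHA2 0.072, TRP4 0.11, ARO9 0.12, ARO10 0.50, HOM2 0.22 and PRO1 0.40. With the GC offset, and in brackets with the replicate block: ARG8 −0.10 (−0.10), ARG7 −0.081 (−0.082), ARG3 0.20 (0.21), LYS21 −0.029 (−0.029), LYS12 −0.019 (−0.018), ILV5 −0.18 (−0.18), ARO7 0.0033 (0.0038), TRP3 −0.13 (−0.13), ARO10 0.0019 (0.0047), SER1 −0.14 (−0.14), HOM6 −0.018 (−0.018), THR1 −0.042 (−0.044) and THR4 −0.10 (−0.10). With the length offset, and in brackets with the block: ARG8 −0.14 (−0.14), ARG7 −0.13 (−0.13), TYR1 −0.15 (−0.15), TRP3 −0.051 (−0.050), SER33 −0.017 (−0.018), SER1 −0.14 (−0.14), HOM3 −0.11 (−0.11), HOM6 −0.015 (−0.015) and THR4 −0.15 (−0.15). SER1 was −0.0030 with DESeq2 size factors and with the Wald test of DESeq2. Leaving out 1 library at a time gave ranges that cross 0 for ARG3 (−0.12 to 0.14), ARO10 (−0.078 to 0.052), SER1 (−0.054 to 0.056), THR4 (−0.018 to 0.070), ARG8 (−0.037 to 0.057), HIS6 (−0.14 to 0.087), ARO2 (−0.018 to 0.0032) and TYR1 (−0.018 to 0.077), none of them called in the comparison of all 6 libraries.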
